A study of Tupaia belangeri with 2 samples.

Results

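The TCF7L2-high neurons described here were 375 glutamatergic neurons of the fetal tree shrew brain, taken from 15998 cells by the transcripts they carried. They were selected on UMI counts of their own transcripts (a unique molecular identifier, UMI, marks 1 captured transcript), so those genes and the levels that follow from them are described without a test. A barcode was chosen when it held at least 500 genes, at least 1 UMI of SLC17A6, at least 2 UMIs of TCF7L2, none of EBF3, none of GAD1 or GAD2, and at most 1 of 6 cell-division genes (MKI67, TOP2A, CENPF, PRC1, NUSAP1 and UBE2C). The cells came from the whole brains of 2 embryos of the tree shrew Tupaia belangeri at 4 to 5 postconceptional weeks, untreated and stripped of dura mater and blood vessels before papain dissociation. Each embryo gave a single 10x Chromium library read from the 3′ end. With a single condition, the comparisons below set the chosen neurons against other neurons of the same embryos. Embryo 1 had 9241 barcodes and 41868023 UMIs, and embryo 2 had 9685 barcodes and 38077767 UMIs. The libraries shared 18 barcode sequences, none of them of a chosen cell.

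TCF7L2 encodes a DNA-binding protein of the TCF/LEF family, which works with β-catenin at the end of the canonical Wnt pathway. In the developing forebrain it is known as a lasting mark of postmitotic neurons of the thalamus, habenula and pretectum, and it is also present in parts of the midbrain. SLC17A6 encodes the vesicular glutamate transporter that most subcortical glutamatergic neurons use, GAD1 and GAD2 encode the enzymes that make GABA, and EBF3 is a helix-loop-helix transcription factor of many early postmitotic neurons.

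Embryo 1 contributed 168 of 7177 cells (2.34%, exact 95% binomial interval 2 to 2.72%) and embryo 2 contributed 207 of 8821 (2.35%, 2.04 to 2.68%), a mean of 2.34% ± 0.0042 (SD, n = 2 embryos). Intervals here and below cover counting error only. The chosen cells were of ordinary depth, with 744 to 17353 UMIs per cell in embryo 1 (median 3759) and 692 to 8689 in embryo 2 (median 3592). They held 685010 and 759558 UMIs in all, and 354 of the 375 had at least 2000 UMIs. TCF7L2 itself ran from 2 to 58 UMIs per cell in embryo 1 and from 2 to 39 in embryo 2, with a median of 9 in both. Of the 375 cells, 280 had 5 or more TCF7L2 UMIs. SLC17A6 was at its lower limit in most of them, with exactly 1 UMI in 120 and 148 cells. Just inside the TCF7L2 limit lay 35 cells with 2 UMIs and just outside it 39 cells with 1, whose LHX9 levels were 228 ± 78.4 and 208 ± 14.5 counts per 1000000 UMIs of the group (CPM, mean ± SD of 2 embryos). All levels below are CPM, of embryo 1 and then of embryo 2.

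TCF7L2 was not restricted to these cells. At least 2 TCF7L2 UMIs were found in 797 cells of embryo 1 and 939 of embryo 2. Among them, 98 and 149 held a GAD1 or GAD2 UMI, and 451 and 508 held neither those nor SLC17A6. The chosen cells carried 25% of all TCF7L2 UMIs of embryo 1 and 25.4% of those of embryo 2.

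The label thalamic was checked against marker genes and was not established by them. Of the 20 measured genes of the thalamus list outside the rule, 4 had a mean of at least 20 CPM (LHX9, SHOX2, FOXP2 and PLXNC1), 9 were lower and 7 had no UMI. LHX9, a LIM-homeobox transcription factor of the caudal thalamus, which also marks other diencephalic and midbrain neurons, stood at 270 CPM in embryo 1 and 290 in embryo 2. After each cell was thinned at random to 2000 UMIs, an LHX9 UMI was present in 62 of 160 cells (38.8%) and 86 of 194 cells (44.3%). In microglia-type cells of the same libraries, which should lack it, the share was 1 of 23 and 1 of 31, and in erythroid-type cells it was 0.313% and 0.399%. Median depths were 3918.5 and 5532.5 UMIs in microglia-type cells and 8356 and 9754.5 in erythroid-type cells. Haemoglobin made up 88.9% and 90.2% of the erythroid-type UMIs, with a median of 197 and 177 genes per cell. Thinned erythroid-type cells therefore kept few other UMIs, and their low LHX9 share is no measure of the background in neurons. SHOX2, a homeobox gene used in thalamic and other relay neurons, stood at 86.1 and 57.9 CPM. It was found in 13.1% and 11.3% of the thinned cells, against none of the thinned microglia-type cells. GBX2, the homeobox gene most closely tied to early thalamic neurons, gave only 7 and 4 UMIs in the whole population, in 6 and 4 cells, against 2 and 0 EBF3-positive cells and none of the TCF7L2-zero or cortical-type cells. Without thinning, a GBX2 UMI was also found in 1 of 32 and 0 of 34 microglia-type cells, against 3.57% and 1.93% of the chosen cells. FOXP2, a forkhead factor of many neurons, was at 43.8 and 52.7 CPM. It was found in 7.5% and 8.25% of the thinned cells, against 6.25% and 7.25% of EBF3-positive cells and none of the thinned microglia-type cells. RORB gave 2 and 3 UMIs, PRKCD none, and no gene model bore the name LHX2 or RORA.

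Markers of neighbouring regions were present alongside. TFAP2D, an AP-2 family transcription factor of dorsal midbrain neurons, stood at 256 and 324 CPM. IRX3 and IRX5, Iroquois homeobox genes of the diencephalon, midbrain and more caudal brain, stood at 114 and 179, and at 118 and 204. The engrailed genes, which pattern the midbrain and anterior hindbrain, were low but counted, EN1 at 17.5 and 15.8 CPM and EN2 at 27.7 and 52.7. POU4F2, a POU-domain gene of tectal and retinal neurons, was at 36.5 and 43.5. TFAP2D was found in 22.5% and 26.8% of the thinned cells, against 1 of 23 and 1 of 31 microglia-type cells. For IRX3 the shares were 16.25% and 25.8%, against 0 of 23 and 1 of 31. EN1 (3.13% and 3.61%), EN2 (6.25% and 11.3%) and POU4F2 (7.5% and 5.67%) were found in no thinned microglia-type cell. Without thinning, EN1 was found in 0% and 2.94% of microglia-type cells, against 5.36% and 4.35% of the chosen cells. For EN2 these shares were 0% and 5.88% against 10.1% and 14%, and for POU4F2 0% and 0% against 8.93% and 9.18%. With so few microglia-type cells, the intervals around 0 thinned cells reach 14.8% and 11.2%, so a background of similar size is not excluded for these 3 genes. The same limits apply to SHOX2 (13.1% and 11.3%) and FOXP2 (7.5% and 8.25%) above. Without thinning, SHOX2 was found in 0% and 5.88% of microglia-type cells, against 20.8% and 14.5% of the chosen cells. For FOXP2 these shares were 0% and 2.94% against 14.3% and 15%. The habenular gene POU4F1 gave 9 and 7 UMIs. The population is therefore named below by its rule, as TCF7L2-high neurons.

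Markers of other cell types were present at uneven levels. The progenitor and radial glia list summed to 518 and 595 CPM, led by VIM, an intermediate filament gene, at 213 and 267, with 3 of its 15 measured genes at 0. FABP7 of that list was found in 21.3% and 23.2% of the thinned cells, against 2 of 23 and 2 of 31 microglia-type cells. The GABA list summed to 305 and 166 CPM, almost all of it TFAP2B at 296 and 153, and 9 of its 14 measured genes were at 0, GAD1 and GAD2 among them by the rule. The microglia list summed to 17.5 and 10.5, led by APOE, with 4 of 6 genes at 0. The mesenchyme and choroid list summed to 43.8 and 98.7, led by TTR at 35 and 68.5, with 2 of 7 genes at 0. The cortical list summed to 55.5 and 10.5, led by NEUROD6, and 1 cell carried at least 2 of the 4 cortical genes used below. Haemoglobin was uneven. It made up 3.88% of the UMIs in embryo 1 and 0.178% in embryo 2, but 0.236% and 0.0849% in the median cell, and 5 and 2 cells with 1% or more held 94.4% and 50.1% of it.

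The embryos were close to each other. Of 1887 genes with at least 100 UMIs, 99.5% lay within 2-fold between embryos. Beyond haemoglobin, the widest gap was in RL37, a ribosomal protein gene, at 244 against 2225 CPM, and a gap of the same direction was present over all barcodes (211 against 2343). CRABP1 was at 40.9 and 124, and PTN at 104 and 238. TFAP2B, among the genes described below, was at 296 and 153.

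The comparison groups were 3 sets of neurons from the same libraries, all with at least 500 genes, no GAD1 or GAD2 UMI and the same limit on cell-division genes. EBF3-positive neurons (147 and 197 cells) held SLC17A6 and at least 1 EBF3 UMI with any TCF7L2 count. TCF7L2-zero neurons (128 and 206 cells) held SLC17A6 but no TCF7L2 or EBF3. Cortical-type neurons (284 and 272 cells) held at least 2 of NEUROD2, NEUROD6, TBR1 and FEZF2, no EBF3 and at most 1 TCF7L2 UMI. UMIs were summed per embryo and group and tested with edgeR's quasi-likelihood test, with the embryo as a block and Benjamini-Hochberg adjustment over 5500 genes. The genes that defined the groups were not tested. A listed gene could enter the test through any 1 of the 4 groups in which it was high, which can fix its direction, so counts over a list describe its tested genes and support no statement on the list. Median depths were 4284 and 3835 UMIs per cell in EBF3-positive neurons, 3496.5 and 3364 in TCF7L2-zero neurons and 4868 and 4048.5 in cortical-type neurons. With the embryo as a block, the p-values measure how far the differences between groups disagree between 2 embryos. The shift common to all groups of an embryo is taken out. The 3 comparisons share the TCF7L2-high cells and 1 estimate of spread.

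**Figure D1:**
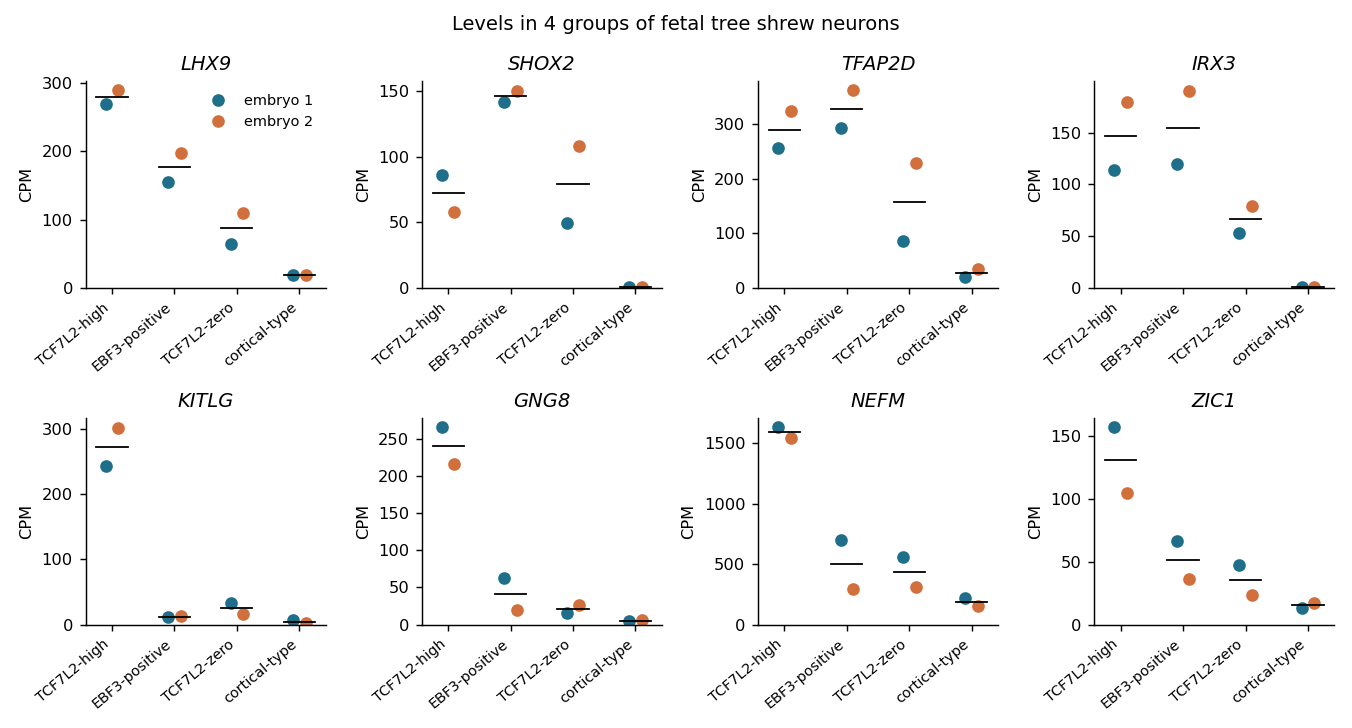
Levels of 8 genes in CPM (linear axes from 0) in TCF7L2-high, EBF3-positive, TCF7L2-zero and cortical-type neurons. Each point is 1 embryo and each bar the mean of both. In both embryos KITLG, GNG8, NEFM, ZIC1 and LHX9 stand highest in TCF7L2-high neurons and SHOX2 in EBF3-positive neurons, while TFAP2D and IRX3 overlap between those 2 groups.

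Against EBF3-positive neurons, the question was what sets TCF7L2-high neurons apart from SLC17A6-positive neurons that carry EBF3. The cortical gene NEUROD6 was found in 16% and 7.25% of the thinned EBF3-positive cells, against 3.13% and 0.515% of TCF7L2-high cells, 0 of 23 and 1 of 31 microglia-type cells, and its part in the differences was not tested. The signature was small: 87 genes were higher (1.58% of those tested) and 105 lower (1.91%), 3.49% in all. KITLG, the ligand of the KIT receptor tyrosine kinase, led it. Its level was 242 and 302 CPM in TCF7L2-high neurons of embryos 1 and 2, and 12.1 and 12.5 in EBF3-positive neurons, a log2 difference of 4.42 ± 0.27 (SE, adjusted p = 8.91e-14). KITLG was found in 20% and 14.4% of the thinned TCF7L2-high cells and in 2.08% and 2.07% of the EBF3-positive ones, with 1 of 23 and 1 of 31 microglia-type cells. Both embryos gave a higher level in TCF7L2-high neurons, and at this depth a KITLG UMI was found in a minority of the cells.

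Among the other higher genes, GNG8, a G-protein γ subunit, was at 266 and 216 CPM against 63.4 and 20 (log2 difference 2.56 ± 0.22). WLS, the membrane carrier that Wnt proteins need for secretion, was at 220 and 178 against 42.3 and 41.3 (2.21 ± 0.20). PDZRN4, a PDZ and RING domain protein, was at 184 and 191 against 43.8 and 27.5 (2.39 ± 0.22). All 3 differed in the same direction in both embryos, and the embryo values of the groups did not overlap. GNG8 was found in 14.9% ± 2.82 of the thinned cells, WLS in 21.5% ± 4.12 and PDZRN4 in 24% ± 3.92 (SD, n = 2), against at most 2 of 31 microglia-type cells for any of them.

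Neurofilament genes were higher as well. NEFM, the medium chain, was at 1636 and 1543 CPM against 703 and 293 in EBF3-positive neurons (log2 difference 1.73 ± 0.13, adjusted p = 4.93e-12). The light chain, which the annotation names NFL, was at 564 and 457 against 208 and 104 (1.72 ± 0.13). Of the 15 tested genes of the neuron maturation list, 4 were higher (NEFM, STMN4, INA and MAP1B) and none was lower, with a median log2 difference of 0.22 against −0.0049 over all genes tested, of which 1.58% were higher and 1.91% lower. INA, another intermediate filament gene, and MAP1B, a microtubule-associated protein, differed by 0.53 and 0.35. In the nascent neuron list 3 of 6 tested genes were lower, beside the same 1.91% of all genes. NEUROD1, a helix-loop-helix factor of newborn neurons, had 7.3 and 2.63 CPM against 27.2 and 27.5, the cell-cycle inhibitor CDKN1C 226 and 208 against 516 and 702, and the antiproliferative gene BTG2 23.4 and 32.9 against 69.4 and 88.9. SOX4 of the same list was higher by 0.42 ± 0.08. When EBF3-positive neurons were restricted to those with at least 2 TCF7L2 UMIs, none of those 3 was lower by the test (CDKN1C −0.26, adjusted p = 0.66, BTG2 −0.58, adjusted p = 0.69, and NEUROD1 1.05, adjusted p = 0.87), and INA (0.06, adjusted p = 0.93) and STMN4 (1.33, adjusted p = 0.088) did not pass either.

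Of 4 tested ZIC genes, zinc-finger transcription factors of dorsal neural tissue, 3 were higher, beside 1.58% of all genes tested. ZIC1 was at 158 and 105 CPM against 66.4 and 36.3 (log2 difference 1.35 ± 0.22), ZIC2 at 75.9 and 120 against 31.7 and 30 (1.65 ± 0.25), and ZIC4 at 46.7 and 43.5 against 7.55 and 2.5 (3.16 ± 0.46). ZIC5 did not pass, at 17.5 and 14.5 against 7.55 and 3.76 (1.48 ± 0.62, adjusted p = 0.23). The ZIC and cerebellin list held 3 higher and no lower genes of 6 tested here, beside 1.58% higher and 1.91% lower of all genes tested. Against TCF7L2-zero neurons it held 3 higher (ZIC1, ZIC2 and ZIC4) and 2 lower (CBLN1 and C1QL3), beside 1.24% higher and 2.11% lower of all genes tested.

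The regional genes divided. LHX9 was at 270 and 290 CPM against 155 and 198, a log2 difference of 0.63 ± 0.14 (adjusted p = 0.0031). SHOX2 was lower in TCF7L2-high neurons, at 86.1 and 57.9 against 142 and 150 (−1.06 ± 0.21, adjusted p = 0.0016), although it is on the list of markers given for them. In the pretectum and midbrain list, 3 of 16 tested genes were lower (EN1, TFAP2B and POU4F2) and none was higher, beside 1.91% and 1.58% of all genes tested. TFAP2B, an AP-2 factor, was at 296 and 153 against 465 and 540 (−1.20 ± 0.18). TFAP2D (−0.20 ± 0.13), IRX3 (−0.11 ± 0.15) and IRX5 (0.28 ± 0.16) did not pass the test.

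Because EBF3-positive neurons could hold any TCF7L2 count, they were also restricted to those with at least 2 TCF7L2 UMIs (48 and 51 cells), and 48 genes passed. KITLG (3.22), WLS (2.30), GNG8 (2.04), NEFM (1.81), NFL (1.26), ZIC1 (1.35) and ZIC2 (1.74) were still higher by the test, and ZIC4 (2.00, adjusted p = 0.08) did not pass. LHX9 did not pass either, with a log2 difference of −0.13 (adjusted p = 0.87), nor did SHOX2 (−0.96, adjusted p = 0.065) or EN1 (−1.55, adjusted p = 0.13). TFAP2D became lower in TCF7L2-high neurons, by 1.10 on the log2 scale. Without the embryo block, 62 genes passed in place of 192, and LHX9 (adjusted p = 0.11), SHOX2 (0.065), EN1 (0.18), POU4F2 (0.31), INA (0.097), STMN4 (0.22), MAP1B (0.19) and SOX4 (0.24) were not among them. DESeq2 called 56, which left out LHX9 (adjusted p = 0.39), SHOX2 (0.33), TFAP2B (0.66), POU4F2 (0.9987), STMN4 (0.56), BTG2 (0.053), ZIC1 (0.073) and CHL1 (0.29).

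Other lower genes included LMO1, a LIM-only transcriptional cofactor, at 5.84 and 10.5 CPM against 69.4 and 76.4 (−3.15 ± 0.34). SFRP1, a secreted Wnt-binding protein, was at 39.4 and 27.7 against 90.5 and 129 (−1.77 ± 0.22). It was the single gene of the 16 tested in the Wnt pathway list that passed, a list that does not hold WLS. The receptor phosphatase gene PTPRG was at 65.7 and 47.4 against 157 and 234 (−1.83 ± 0.20), and TCF4, a helix-loop-helix factor gene distinct from the TCF/LEF family, at 11.7 and 14.5 against 70.9 and 31.3. The neuropeptide SST gave 3 UMIs in all TCF7L2-high cells, at 2.92 and 1.32 CPM against 106 and 35.1. Few EBF3-positive cells carried that level, with an SST UMI in 9 of 144 and 2 of 193 thinned cells. For adhesion and guidance, CHL1, of the L1 family of adhesion molecules, was at 784 and 953 against 546 and 237 (1.17 ± 0.15) and the Slit receptor ROBO2 at 169 and 224 against 134 and 129 (0.56 ± 0.15), while CNTN2, an axonal contactin, was at 23.4 and 26.3 against 72.4 and 92.6. These were 2 higher and 1 lower of 20 tested axon guidance genes, beside 1.58% higher and 1.91% lower of all genes tested. With the restriction to at least 2 TCF7L2 UMIs, SFRP1 (−0.35, adjusted p = 0.86), PTPRG (−0.52, adjusted p = 0.60), TCF4 (−1.34, adjusted p = 0.27) and ROBO2 (0.10, adjusted p = 0.93) did not pass, and ROBO2 also failed without the embryo block (adjusted p = 0.19) and in DESeq2 (0.81).

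**Figure D2:**
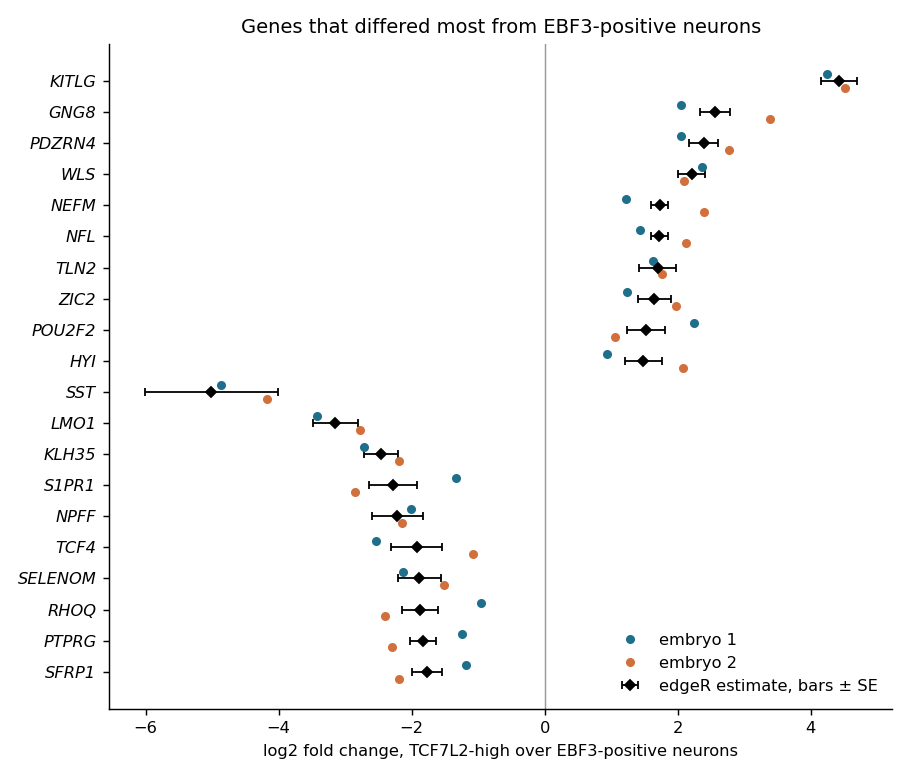
Log2 fold changes of TCF7L2-high over EBF3-positive neurons for the 10 higher and 10 lower genes of largest change that passed the test and reached 50 CPM in 1 of the groups. Diamonds are the edgeR estimates with their standard errors and circles the log2 ratio of CPM in each embryo. Both embryos lie on the same side of 0 for all 20 genes, and the SST estimate rests on 3 UMIs in TCF7L2-high neurons.

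Against TCF7L2-zero neurons, 68 genes were higher (1.24% of those tested) and 116 lower (2.11%), 3.35% in all. Scaling by library totals in place of TMM factors gave 85 higher and 89 lower. The higher genes of largest change were again KITLG, at 242 and 302 CPM against 33.4 and 16.7 (log2 difference 3.46 ± 0.25), GNG8 at 266 and 216 against 15.7 and 26.4 (3.35 ± 0.26), PDZRN4 at 184 and 191 against 11.8 and 27.8 (3.09 ± 0.25) and WLS at 220 and 178 against 31.5 and 20.9 (2.89 ± 0.24). NEFM (1.87 ± 0.13), ZIC1 (1.85 ± 0.25), NFL (1.73 ± 0.14) and LHX9 (1.59 ± 0.16) were higher too. SHOX2 did not pass the test, with 86.1 and 57.9 CPM against 49.2 and 109 (−0.26 ± 0.24). In the pretectum and midbrain list, IRX2, IRX3, IRX5 and TFAP2D were higher, and LHX1 and TFAP2B lower, of 16 tested. IRX3 differed by 1.09 ± 0.19 and TFAP2D by 0.79 ± 0.15. Of 16 Wnt pathway genes, CTNNB1, which encodes β-catenin, was higher by 0.51 ± 0.10, and SFRP1 and the receptor FZD2 were lower. Without the embryo block 65 genes passed, and IRX3 (adjusted p = 0.077), IRX5 (0.29), TFAP2D (0.28) and CTNNB1 (0.06) were not among them. In DESeq2, which called 58, IRX3 (adjusted p = 0.065), IRX5 (0.15), CTNNB1 (0.088) and TFAP2B (0.75) did not pass.

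Among the lower genes, POMC, the hormone precursor of arcuate hypothalamic neurons, was at 1.46 and 6.58 CPM against 181 and 195 (−5.52 ± 0.34, adjusted p = 8.09e-14). DIRAS3, a Ras-related GTPase, was at 7.3 and 7.9 against 142 and 199 (−4.53 ± 0.33). ZNF238, an older symbol of the repressor ZBTB18, was at 8.76 and 6.58 against 150 and 79.3, and VIL2, an older symbol of ezrin, at 10.2 and 3.95 against 152 and 90.4. NEUROD1 was at 7.3 and 2.63 against 57.1 and 57. NEUROD6 was found in 21.9% and 21.2% of the thinned TCF7L2-zero cells against 3.13% and 0.515% of TCF7L2-high cells, and the part of such cells in these differences was not tested. NTS and CCK were at 0 in TCF7L2-high neurons, below 4.38 and 3.95 CPM by the limit of 3 counts per embryo. AHSP, HBB, HBA2 and ALAS2, all erythroid genes, were lower as well, and AHSP, HBA2 and HBB reversed when cells of high doublet score were left out. NTS, CCK, AHSP, HBA2, HBB and ALAS2 did not pass without the embryo block (adjusted p from 0.1273 to 0.7359), and SST did not in DESeq2 (0.22). SST, also lower by the test, was at 2.92 and 1.32 CPM against 1.97 and 188, so its difference came from embryo 2 alone.

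Against cortical-type neurons the contrast was broad, with 543 genes higher (9.87% of those tested) and 569 lower (10.3%), 20.2% in all. Library totals moved the median of all genes by 0.18 on the log2 scale and the split to 917 higher and 339 lower. Regional transcription factors were among the higher genes. IRX3 stood at 114 and 179 CPM against 0.683 and 0.831, SHOX2 at 86.1 and 57.9 against the same 0.683 and 0.831 (1 UMI in each embryo), and LHX9 at 270 and 290 against 18.4 and 18.3 (3.72 ± 0.18). IRX5 (5.46 ± 0.29), TFAP2B (4.68 ± 0.35), TFAP2D (3.23 ± 0.19) and ZIC1 (2.95 ± 0.24) were higher too. Of the 16 tested genes of the pretectum and midbrain list, out of 36 measured, 13 were higher and 1 lower, and of the 5 tested thalamus genes SHOX2, FOXP2, LHX9 and PLXNC1 were higher and CALB2 lower. The genes of the signature above were also far apart, KITLG by 5.58 ± 0.28 and GNG8 by 5.32 ± 0.28, and NFL stood at 564 and 457 CPM against 15 and 9.97.

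Of the 16 tested genes of the Wnt pathway list, out of 51 measured, 9 were higher and 3 lower than in cortical-type neurons, against 9.87% and 10.3% of all genes tested. LEF1, another TCF/LEF family member, stood at 56.9 and 71.1 CPM against 0.683 and 0. The receptor FZD10 was at 51.1 and 52.7 against 3.42 and 1.66 (4.02 ± 0.43). AXIN2 and ZNRF3, which limit Wnt signalling and are among its usual targets, were higher by 2.35 ± 0.37 and 2.05 ± 0.40, and CTNNB1 by 1.11 ± 0.10. SFRP1 was lower by 3.99 on the log2 scale (39.4 and 27.7 against 462 and 469). TCF7L1 had no UMI in TCF7L2-high neurons. These differences were from cortical-type neurons: against EBF3-positive neurons none of the 16 genes was higher and SFRP1 alone was lower. A LEF1 UMI was found in 10.6% and 12.4% of the thinned TCF7L2-high cells and in 18.1% and 20.7% of the EBF3-positive ones.

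Excitability and synaptic genes were mostly too low to test in these libraries, and 10 of 30 channel genes could be tested. Against cortical-type neurons 6 of the 10 were higher and 1 lower, beside 9.87% and 10.3% of all genes. The sodium channel gene SCN2A stood at 49.6 and 55.3 CPM against 11.6 and 14.1 (1.83 ± 0.29) and SCN1A at 61.3 and 76.4 against 22.5 and 26.6. The T-type calcium channel gene CACNA1G, which supports burst firing in mature thalamus, gave 1 and 3 UMIs. Against EBF3-positive neurons the calcium channel subunit gene CACNA2D1 was lower, by 1.12 on the log2 scale, and it was the only one of the 10 that passed, though not with the restriction to at least 2 TCF7L2 UMIs (−0.38, adjusted p = 0.58). For glutamate receptors GRIA4, GRIA2 and GRM8 were higher and GRIA1 lower than in cortical-type neurons. Of 20 guidance genes 6 were higher and 6 lower. EPHA5 stood at 19 and 19.8 CPM against 176 and 175 (−3.35 ± 0.21), and EFNB2, an ephrin, at 27.7 and 13.2 against 114 and 130. In DESeq2, CALB2 (adjusted p = 0.33), ZNRF3 (0.086), GRIA2 (0.42) and GRM8 (0.27) did not pass, and GRIA2 did not without the embryo block (0.073).

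For the remaining lists, against EBF3-positive, TCF7L2-zero and cortical-type neurons in turn, the 8 tested cadherin genes gave no call, no call and 1 higher (CDH10), with medians of −0.05, −0.26 and 0.65 on the log2 scale. The 7 tested GABA and glycine receptor genes gave no call, no call and 3 higher (SLC12A5, GABRA3 and GABRG1), with medians of 1.02, 0.27 and 1.63. In the habenula list 7 genes were tested: 2 were lower than in EBF3-positive neurons, 1 higher and 1 lower than in TCF7L2-zero neurons, and 4 higher and 1 lower than in cortical-type neurons. Of 13 measured neuropeptide genes 5 were tested, and SST against EBF3-positive neurons and POMC, SST, NTS and CCK against TCF7L2-zero neurons were lower, genes with at most 6 UMIs in all TCF7L2-high cells. NTS was also lower than in cortical-type neurons by the test, but it reversed without embryo 1. Of 5 tested progenitor genes none, 1 lower, and 1 higher with 1 lower passed. Medians over all genes tested were −0.0049, −0.0042 and 0.0086, and 3.49%, 3.35% and 20.2% of all genes were called.

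Among the lower genes, ZNF238 was at 8.76 and 6.58 CPM against 760 and 582 (−6.61 ± 0.20), VIL2 at 10.2 and 3.95 against 436 and 441 (−6.13 ± 0.25), NFIB, a nuclear factor I gene, at 11.7 and 5.27 against 204 and 226 (−4.85 ± 0.28), and C1QL3 at 1.46 and 0 against 92.9 and 174.

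TCF7L2-high neurons were not uniform. Across cells thinned to 2000 UMIs, the ratio of variance to mean, taken as the lower of the 2 embryos' values for each gene, was 0.976 at the median of 2175 genes, and it exceeded 1.5 in both embryos for 58 genes. NEFM was the most uneven, at 8.78 and 10.7 in embryos 1 and 2, followed by TFAP2B (6.3 and 5.96), TYB10, a thymosin gene (6.64 and 5.2), GNG8 (5.72 and 4.61), NFL (4.54 and 4.79), KITLG (3.39 and 5.56), MAP1B (3.33 and 5.68), TFAP2D (3.03 and 3.39), CAM2B (3.44 and 3.02) and CHL1 (2.98 and 2.96), in the order of the lower of the 2 values. FDPS and HMGCS1, enzymes of the sterol pathway, were at 3.01 and 2.22, and at 2.09 and 2.1.

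Several of the uneven genes fell into 2 sets that were seldom found in the same cells, and within a set not all genes went together. These genes were chosen after their values were seen, and the counts describe the cells without a test. Of 88 thinned cells with a TFAP2D UMI, none had a KITLG UMI, whereas 60 of 266 cells without TFAP2D did. With 36 such cells in embryo 1 and 52 in embryo 2, a count of 0 allows shares of cells with a UMI of up to 8.33% and 5.77%, which does not limit the share of cells that express the gene below this depth. GNG8 was likewise found in none of the 88 and in 52 of the 266. WLS was found in 3 of the 88 and in 72 of the 266. CHL1 was found in 22.2% and 26.9% of the cells with TFAP2D, against 60.5% and 70.4% of those without. In the other direction, EN2 was found in 25% and 23.1% of the cells with TFAP2D and in 0.806% and 7.04% of those without, IRX3 in 30.6% and 44.2% against 12.1% and 19%, and IRX5 in 27.8% and 46.2% against 14.5% and 22.5%. LHX9 was found in 47.2% and 50% of the cells with TFAP2D and in 36.3% and 42.3% of the others, and in 24 of 32 cells with EN2 against 124 of 322 without. Within the first set, WLS was found in 34 of 60 cells with KITLG against 41 of 294 without. With GNG8 it was found in 9 of 52 cells against 66 of 302 without. Within the second set, IRX5 was found in 48 of 76 cells with IRX3 against 36 of 278 without, and EN1 in 2 of 76 against 10 of 278.

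**Figure D3:**
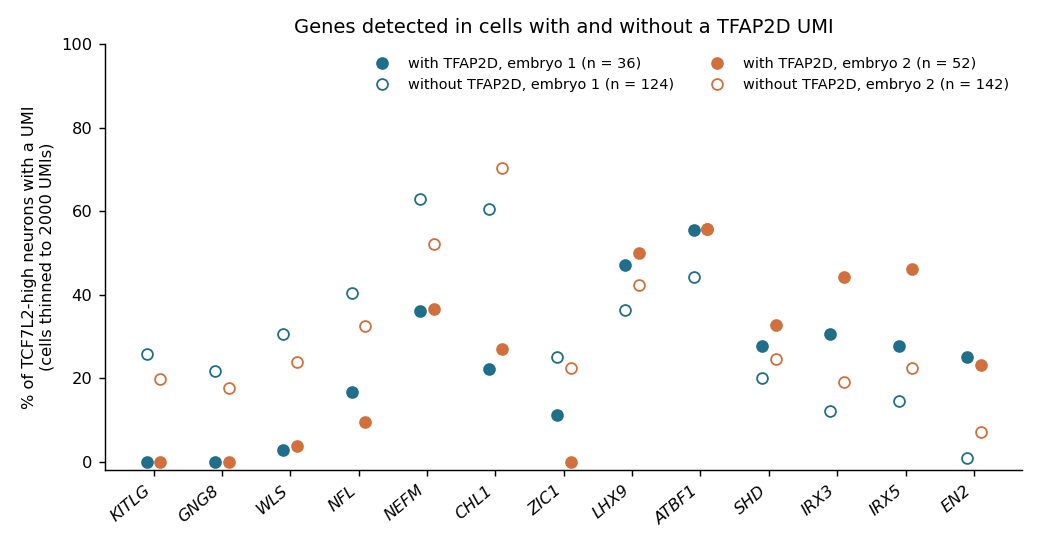
Percent of TCF7L2-high neurons with a UMI of each gene, among cells with (filled) and without (open) a TFAP2D UMI, in embryos 1 and 2, after thinning to 2000 UMIs per cell. KITLG and GNG8 are at 0 in cells with TFAP2D of both embryos, IRX3, IRX5 and EN2 are more frequent in them, and LHX9 lies between 36.3% and 50% throughout.

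Taking the sets as a whole, 61 and 57 cells held KITLG, WLS or GNG8 and none of TFAP2D, IRX3, IRX5, EN1 and EN2. Another 54 and 89 cells held the second set and not the first, 8 and 8 held both, and 37 and 40 held neither. GNG8 was highest in the few cells that held both, at 2183 and 1602 CPM against 390 and 451 in the cells of the first set alone. The first group carried 3315 and 3074 NEFM CPM and the second 299 and 286. ZIC1 stood at 253 and 237 in the first group against 77 and 9.42 in the second. LHX9 stood at 241 and 178 in the first group and at 353 and 349 in the second. TCF7L2 itself had a median of 14 and 13 UMIs per cell in the first group and of 8 and 7 in the second, while the median depth was 3671 and 3647 UMIs against 3925 and 3532.

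KITLG had its own companions. Among the 32 and 28 thinned cells with KITLG, WLS was found in 59.4% and 53.6%, against 15.6% and 12.7% of the cells without, and NFL in 59.4% and 71.4% against 28.9% and 18.7%. ZIC1 was found in 44.4% and 44% of the cells with GNG8 and in 17.3% and 12.4% of those without, and in 25% and 32.1% of the cells with KITLG against 21.1% and 13.9% of those without.

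Some of these genes also differed by the level of TCF7L2 within the population. From cells with 2 to 4 TCF7L2 UMIs to cells with 20 or more, KITLG went from 151 to 591 CPM in embryo 1, with 76.7 in cells with 5 to 9, and from 56.6 to 1069 in embryo 2. NEFM went from 366 to 3719 and from 653 to 2752. WLS went from 50.3 to 439 and from 66.9 to 494. GNG8, of the same set as KITLG and WLS, went the other way, from 388 to 208 and from 247 to 50.4. So did TFAP2B, from 697 to 112 and from 468 to 10.1. LHX9 showed no common course, with 194 and 293 at the low end and 295 and 151 at the high end. The end groups hold 38 and 57 cells, and 23 and 22 cells, with median depths between 3401.5 and 4441 UMIs, and the part that depth plays was not tested.

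**Figure D4:**
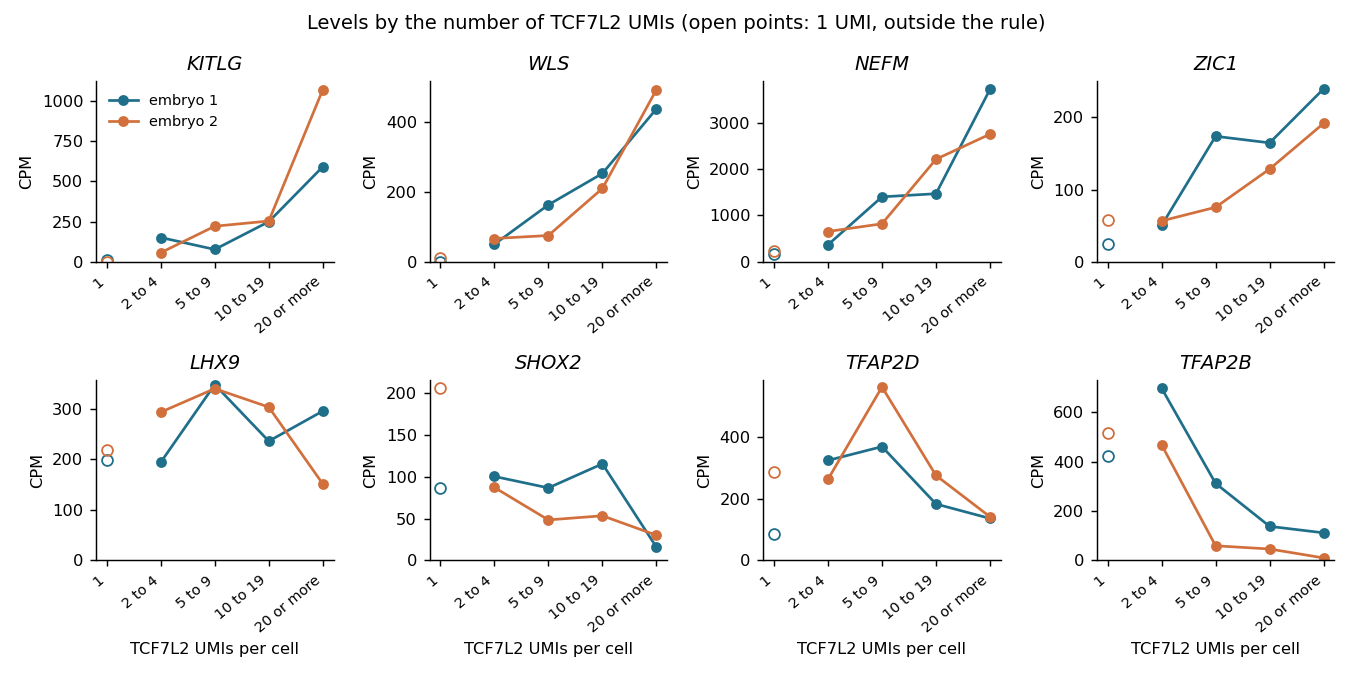
Levels of 8 genes in CPM (linear axes from 0) by the number of TCF7L2 UMIs per cell, in SLC17A6-positive, EBF3-negative, GAD-negative cells of embryos 1 and 2. Open points are cells with 1 TCF7L2 UMI, which the rule leaves out. KITLG, WLS, NEFM and ZIC1 are highest in cells with 20 or more TCF7L2 UMIs and TFAP2B is highest among the chosen cells in those with 2 to 4.

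Tests between subsets of the cells gave short lists. Cells with a ZIC1 UMI (35 and 32) were compared with those without (125 and 162) on thinned sums, and 6 of 2225 genes passed, or 0.27%, with 3 in each direction (0.135%). ZIC2 was higher at 200 and 219 CPM against 52 and 43.2 (2.11 ± 0.42, adjusted p = 0.044). NFL was higher by 1.33 ± 0.24 and NEFM by 1.33 ± 0.24. TFAP2D was lower, at 85.7 and 0 CPM against 324 and 398 (−3.01 ± 0.49, adjusted p = 0.019), and so was ATBF1, an older symbol of the homeobox factor ZFHX3, at 229 and 234 against 528 and 568 (−1.26 ± 0.22). The sixth gene was HBB, whose UMIs came mostly from the few cells named above. DESeq2 called none of the 6, with 9 genes at an unadjusted p under 0.05.

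Cells with an LHX9 UMI (62 and 86) differed from the others (98 and 108) in 7 of 2433 genes, or 0.288%, with 2 higher (0.0822%) and 5 lower (0.206%). SHD, an adaptor protein gene, was higher at 307 and 291 CPM against 122 and 167 (0.98 ± 0.24, adjusted p = 0.039), and ATBF1 at 597 and 674 against 378 and 384 (0.71 ± 0.16). KITLG was lower, at 161 and 122 against 260 and 357 (−1.21 ± 0.25, adjusted p = 0.0028), as were NFL, the secreted growth factor gene PTN, HBB and HBA1. None of the 7 passed in DESeq2 (6 genes at an unadjusted p under 0.05) or when cells of high doublet score were left out (edgeR, 139 genes at an unadjusted p under 0.05), and 1 passed without the embryo block. The split by POU4F1 rested on 2 cells with a UMI per embryo. There 3 genes passed, all lower (0.144% of 2084 genes), and 4 cells in all are too few for the level of any gene in them to be described.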

How the data were processed

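Single-cell libraries of 2 whole embryonic brains were analysed. Per the labels and the study's methods, the authors checked read quality with fastp, counted reads with Cell Ranger 3.1.0 against the TS_2.0 assembly and used Seurat 3. The deposited values are raw UMI counts per gene model and barcode, without normalization. Models of one name were summed, and 368 of 455 listed genes had a model of that name. Gene names are those of the deposited annotation. No sequences or coordinates are given, because the only annotation table at hand is of another assembly.

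The members, gene lists and tests were chosen with earlier results of these data known. Lists were described by counts and medians. Levels (CPM) are UMIs per 1000000 UMIs of a group, and ± is the SD of 2 embryos, or the SE of a log2 difference. Shares used cells with at least 2000 UMIs, thinned to 2000. Microglia-type cells held at least 3 of 6 microglia genes, and erythroid-type cells at least 50% haemoglobin UMIs. Summed UMIs per embryo and group went into the quasi-likelihood test of edgeR 4.0.16, run under R 4.3.3 with TMM factors and filterByExpr (embryo as a block because all groups come from the same animals, all 4 groups in one fit, Benjamini-Hochberg threshold 0.05). The biological coefficient of variation was 0.0676. Nothing says how the embryos were related. In simulated data with 200 changed genes, the comparison with EBF3-positive neurons recovered 87.8% of 4-fold and 61% of 2-fold changes (5362 genes tested, 9 false calls). Every simulated gene had that same coefficient of variation and no embryo effect, and the changed genes were drawn from those above a count limit. These figures hold for that setting and give no error rate for the real data. Genes named were taken from the measured list members, the 20 most variable genes and the genes of largest change per comparison. The last were the 10 higher and 10 lower (5 for splits) that passed, held at least 50 CPM and went one way in both embryos. The text does not name every gene of these sets. Haemoglobin and ribosomal protein genes were outside this rule. HBB, HBA1, RL37, CRABP1 and the genes of the 2 sets seldom found in the same cells were chosen after their values were seen. Doublets were kept: Scrublet in scanpy 1.11.5 called 1 and 0 cells, so the highest scores (0.8% per 1000 cells) were left out as an alternative, which held 12 of the 375 members. Cells with 5% or more haemoglobin were left out as an alternative chosen after seeing the data. Genes that passed in the POU4F1 split are counted, and their single values are not reported here.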

Additional observations from a re-analysis of the deposited data

How the results depend on the processing

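With 2 embryos, no p-value here reaches beyond these animals. Counts of genes that passed fell without the embryo block to 62 (EBF3-positive), 65 (TCF7L2-zero) and 740 (cortical-type), with DESeq2 to 56, 58 and 404, and with groups set on thinned counts to 74 (EBF3-positive) and 490 (cortical-type), where fewer genes were tested. Restricting EBF3-positive neurons to at least 2 TCF7L2 UMIs gave 48. For the ZIC1 split the counts were 0 with DESeq2, 17 with library totals and 113 on deposited counts. There cell depth enters the split, 62 and 55 cells held a ZIC1 UMI and 3532 genes were tested. For the LHX9 split they were 0 with DESeq2 and without high doublet scores, 1 without the block and 15 on deposited counts. For the POU4F1 split they were 0 with DESeq2 and with library totals, 1 without high doublet scores, 64 without the block and 9 on deposited counts. Other alternatives stayed within 1.5 times the reported counts. The cause of each change was not tested.

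The members numbered 107 with at least 2 SLC17A6 UMIs and 236 with the rule on thinned counts (168 to 207 with 1 embryo). Their share was 2.59% with 1 TCF7L2 UMI, 2.12% with 3, 0.669% with 2 SLC17A6 UMIs, 2.97% without EBF3, 2.36% from 200 genes, 2.21% from 1000 genes, 1.7% with no cell-division gene, 2.3% and 2.32% with haemoglobin under 1% and 5%, 2.27% without high doublet scores and 1.48% on thinned counts (2.341% to 2.347% with 1 embryo). The LHX9 share was 57.5% not thinned and 52% at 3000 UMIs (38.8% to 44.3% with 1 embryo), and that of SHOX2 17.7% and 16.1%, or 14% without the EBF3 term (11.3% to 13.1%). LHX9 stood at 306 CPM with 2 SLC17A6 UMIs, 299.8 with no cell-division gene and 303 on thinned counts (270.1 to 290 with 1 embryo). SHOX2 stood at 88.5 without the EBF3 term, 86.5 on thinned counts and 69.3 with 3 TCF7L2 UMIs (57.9 to 86.1 with 1 embryo).

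Of the named genes that passed against EBF3-positive neurons, LHX9 (−0.13) and NEUROD1 (1.05) reversed with at least 2 TCF7L2 UMIs. Against TCF7L2-zero neurons AHSP (1.47), HBA2 (1.97) and HBB (1.85) reversed without high doublet scores, and SST reversed without embryo 2 (0.31, and −6.58 without embryo 1). Against cortical-type neurons AHSP (1.33), HBA2 (1.08) and HBB (1.32) reversed without high doublet scores, HBB also on thinned counts (0.50), with haemoglobin under 1% (0.056) and without embryo 2 (0.18, and −3.59 without embryo 1), and NTS without embryo 1 (0.66, and −5.01 without embryo 2). Of 40, 51 and 99 such genes, 31, 27 and 40 lost their call under at least 1 alternative.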
